A study of Mus musculus with 6 samples.

Results

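The nuclear-encoded respiratory chain genes are described here in single cells from small-intestinal crypts of the mouse. Members were all genes in the count tables whose symbols begin with Nduf, Uqcr, Atp5 or Cox4 to Cox8, which gave 85 of 19178 genes. They divide by symbol into 36 subunit genes of complex I, 7 complex I assembly factors (Ndufaf genes), 8 genes of complex III, 16 of complex IV (Ndufa4 included) and 18 of complex V, of which 1 (Atp5l-ps1) is annotated as a processed pseudogene. Atp5s and Atp5sl stay in complex V by symbol, although RefSeq now names them Dmac2l and Dmac2 and Dmac2 is known as an assembly factor of complex I. The cells came from C57BL6 mice aged 10 weeks and were counted by Drop-seq, in which droplets pair each cell with a bead that tags the 3′ end of its polyadenylated RNA. They were isolated from crypts released with EDTA and dissociated with trypsin. Mice and cells were untreated. Libraries labelled knockout (epithelial loss of Ptger4, which encodes the prostaglandin E2 receptor EP4) were compared with libraries labelled flox (the floxed Ptger4 allele). Each genotype had 3 collections from 2 biological replicates. Collections 1 and 2 were read from the sample codes as biological replicate 1 and collection 3 as biological replicate 2. None of the sources used here gives the Cre driver, the deleted part of Ptger4 or whether a biological replicate is 1 animal or a pool, so p-values measure only the spread between these sums, which may be technical. Fewer cells of a type and less RNA per cell cannot be told apart in sums over all kept cells.

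Complex I oxidises NADH and complex III oxidises ubiquinol, both pumping protons across the inner mitochondrial membrane. Complex IV hands the electrons to oxygen and complex V, the ATP synthase, uses the proton gradient to make ATP. A few core subunits are encoded by the mitochondrial genome and the rest, described here, by nuclear genes. In the small intestine, stem cells and their dividing progeny fill the crypt, and absorptive enterocytes mature as they move out onto the villus.

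Barcodes with at least 300 genes and at most 25% mitochondrial (mt-) counts numbered 4890 of 13191 (37.1%), with 473 to 1053 per collection and 1028412 to 3020164 counts per collection. Clusters were made without the members and without mt- genes and were named from marker lists, which gave 607 stem cell-like, 363 cycling-like, 595 enterocyte-like, 724 goblet-like and 178 Paneth-like cells, 95 enteroendocrine-like, 60 tuft-like, 152 T or NK-like and 235 B or plasma-like cells. Cells were not placed physically, so crypt and villus refer to marker genes only. The 2 enterocyte-like clusters were led by Fabp1, Apoa4 and Rbp2 (cluster 7, 306 cells) and by Fabp6, Slc10a2 and Slc51b (cluster 8, 289 cells). None of the top 10 genes of cluster 8 was on the enterocyte list, of which 15 of 21 genes were enriched in it. The cycling-like cluster was led by Ube2c, Nusap1 and Hmmr, but the 21 cycling markers together took 0.587% of its counts against 0.684% in stem cell-like cells, while the stem markers took 0.112% against 0.403% and the enterocyte markers 0.864% against 0.302%. The level of cycling markers was thus not higher in it than in stem cell-like cells. Another 1881 cells in 4 clusters stayed unnamed. The largest of these, cluster 1 (884 cells), was led by Gm26917, Gm24270 and Rn7sk, with medians of 817.5 counts and 12.2% mt- counts per cell. Barcodes shared between libraries (133 cells, 2.72% of the kept cells) tied knockout 1, flox 1 and flox 2 together and knockout 2, knockout 3 and flox 3 together. Genotype fits were recomputed within these 2 sets, but the class fits and the interaction were not. All fits were recomputed without the shared barcodes.

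Ptger4 itself was counted at 17.4, 19.1 and 24.5 CPM (counts scaled to 1000000 per library) in the libraries labelled knockout and at 11.9, 13.6 and 15.1 CPM in those labelled flox. All 3 knockout-labelled values lay above all 3 flox-labelled values. The deleted part is not given in the sources used here, and a 3′ count can include transcripts from a recombined allele, so this gene did not check the labels. The word knockout below means the library labelled so.

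Together the 85 members gave 497098 of 11437570 counts (4.35%). Complex IV genes took 32.1% of the member counts, complex V 28.1%, complex I 26.2%, complex III 12.8% and the assembly factors 0.839%. Counts come from the 3′ end and were not scaled by gene length, so levels of different genes are set side by side as CPM. How identifiers were collapsed is not given in the sources used here, so a count may not stand for exactly 1 transcript. Cox4i1, a nuclear-encoded subunit of complex IV that is found in most tissues, was the most abundant member at 2308 CPM (mean of the 6 collections), followed within complex IV by Cox7c at 1389.97 CPM. The leading pairs of the other complexes were Uqcrq (1215 CPM) and Uqcrh (959 CPM) in complex III, Atp5j2 (1293 CPM) and Atp5b (1069 CPM) in complex V, and Ndufb9 (662 CPM) and Ndufc1 (556 CPM) in complex I. Atp5b encodes the catalytic beta subunit of the ATP synthase. The assembly factors were far lower, with Ndufaf2 (127 CPM) and Ndufaf4 (99.5 CPM) at the top. Cox4i2 and Cox6a2 had 1 count each in all kept cells.

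The share of counts that went to members differed by class. It was 4.3% ± 0.31 in stem cell-like cells, 4.89% ± 0.38 in the cycling-like class, 5.16% ± 0.259 in enterocyte-like cells and 3.49% ± 0.197 in goblet-like cells (SD, n = 4 biological replicate sums, here and for all shares below). Values for biological replicates are given in the order knockout biological replicate 1 and 2, then flox biological replicate 1 and 2. The enterocyte-like values were 5.46%, 5.26%, 4.87% and 5.04%, and the stem cell-like values 4.51%, 4.27%, 4.55% and 3.88%. No enterocyte-like value overlapped the stem cell-like range. Goblet-like cells, at 3.6%, 3.41%, 3.25% and 3.69%, lay below every stem cell-like value. Means below that of stem cell-like cells were also found in tuft-like (3.63% ± 0.792), enteroendocrine-like (2.9% ± 0.148), T or NK-like (2.13% ± 0.377) and B or plasma-like cells (1.74% ± 0.0688), with 8 to 118 cells per sum in these classes. Paneth-like cells gave 3.77% ± 1.46, a wide spread: the values were 5.09%, 1.74%, 4.51% and 3.73%. The low sum (knockout biological replicate 2) held 26 cells and the high one (knockout biological replicate 1) 23 cells. Paneth markers took from 0.89% to 26% of the counts of these sums, and their part in the spread was not tested.

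The 2 enterocyte-like clusters lay apart. Cluster 7 gave 5.74% ± 0.38 (6.16%, 5.96%, 5.49% and 5.36%) and cluster 8 gave 4.42% ± 0.27 (4.34%, 4.82%, 4.24% and 4.29%), close to stem cell-like cells. Of the classes and clusters listed here the highest mean was in unnamed cluster 3, which was led by Reg3g, Akr1c19 and Reg3b, at 5.98% ± 0.442 (6.54%, 5.83%, 6.07% and 5.49%). Unnamed cluster 5, led by Hist1h2ae, Hmmr and Spc24, gave 5.23% ± 0.461. These clusters were set side by side after their values were seen, and no test was made between them. By complex, the step from stem cell-like cells to cluster 7 was from 1.4% ± 0.139 to 1.93% ± 0.163 for complex IV, from 1.18% ± 0.0886 to 1.64% ± 0.0735 for complex V, from 1.13% ± 0.0668 to 1.42% ± 0.0978 for complex I and from 0.539% ± 0.0297 to 0.727% ± 0.0506 for complex III. In all 4 complexes cluster 3 and cluster 7 had the highest mean and goblet-like cells the lowest of the groups plotted. The assembly factors differed in this, going from 0.0461% ± 0.00523 in stem cell-like cells to 0.0243% ± 0.00612 in cluster 7.

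**Figure D1:**
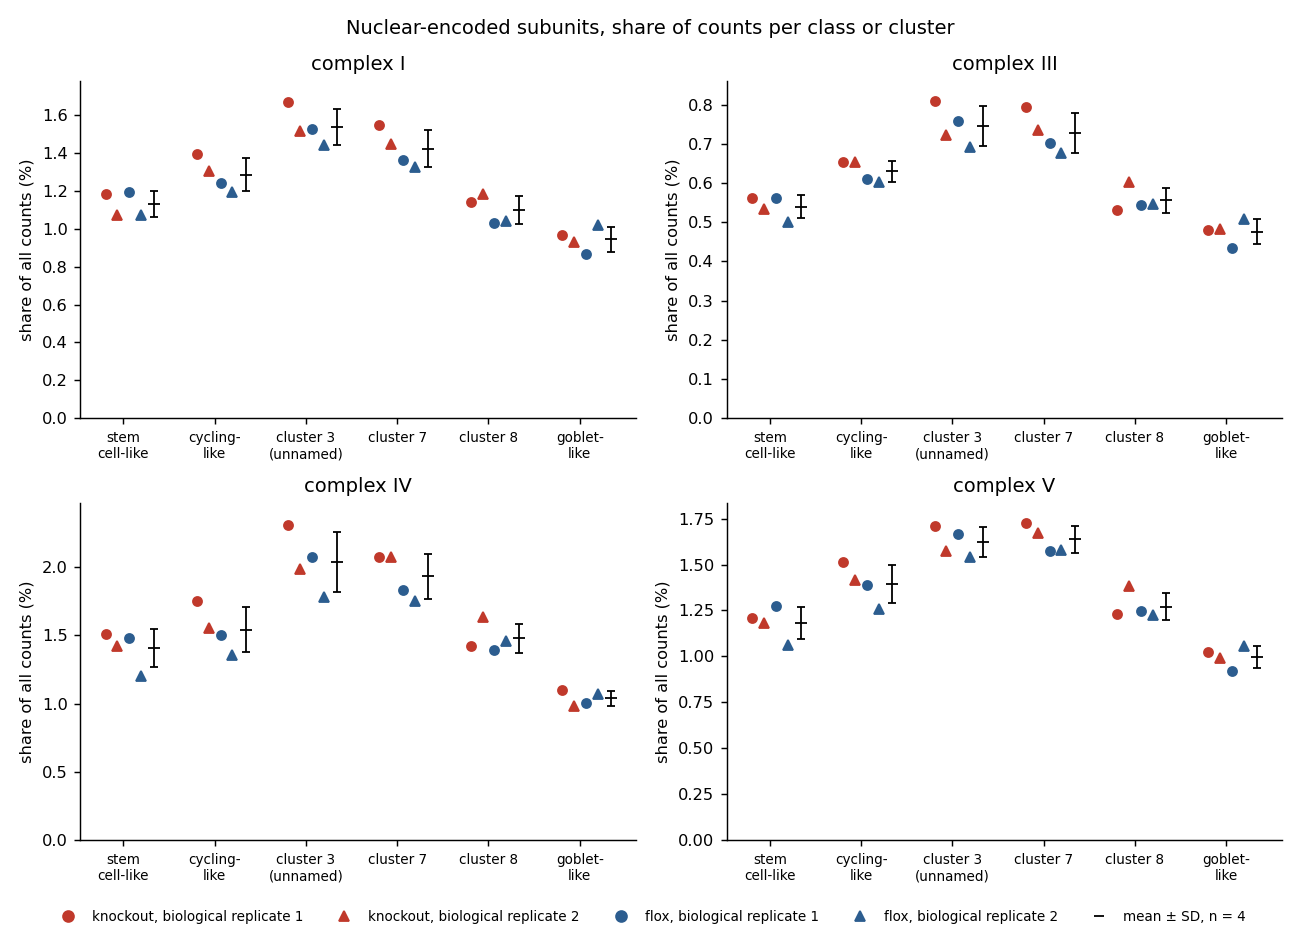
Share of all counts (%) taken by the nuclear-encoded genes of complexes I, III, IV and V in 3 named classes and 3 clusters; points are biological replicate sums coloured by genotype label, and black marks are the mean ± SD of the 4. In each panel cluster 3 and cluster 7 lie above stem cell-like cells, cluster 8 lies near them and goblet-like cells lie lowest.

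A share depends on what else a cell expresses, and here ribosomal protein genes moved the other way. They took 22.3% ± 1.52 of counts in stem cell-like, 17.2% ± 1.14 in cycling-like, 8.72% ± 0.776 in enterocyte-like and 13.8% ± 0.508 in goblet-like cells. The enterocyte-like minus stem cell-like difference in member share was 0.857 ± 0.372 percentage points over all counts (above 0 in 4 of 4 replicates) and 0.211 ± 0.54 percentage points with mt- and ribosomal protein counts left out (above 0 in 3 of 4). The goblet-like difference was -0.815 ± 0.463 percentage points and -1.55 ± 0.699 percentage points with them left out, below 0 in 4 of 4 replicates both times. On that scale the shares were 5.83% ± 0.485, 6.33% ± 0.531, 6.04% ± 0.375 and 4.28% ± 0.298 in the same order of classes. With those genes left out the enterocyte-like difference was smaller than its SD over replicates, and the goblet-like difference was larger than its SD. Marker genes of the classes stayed in the counts on both scales. Goblet markers took 8.53% of goblet-like and 0.0916% of stem cell-like counts. Enterocyte markers took 4.03% of enterocyte-like and 0.302% of stem cell-like counts. The part of the ribosomal protein genes and of these markers in the class differences was not tested.

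**Figure D2:**
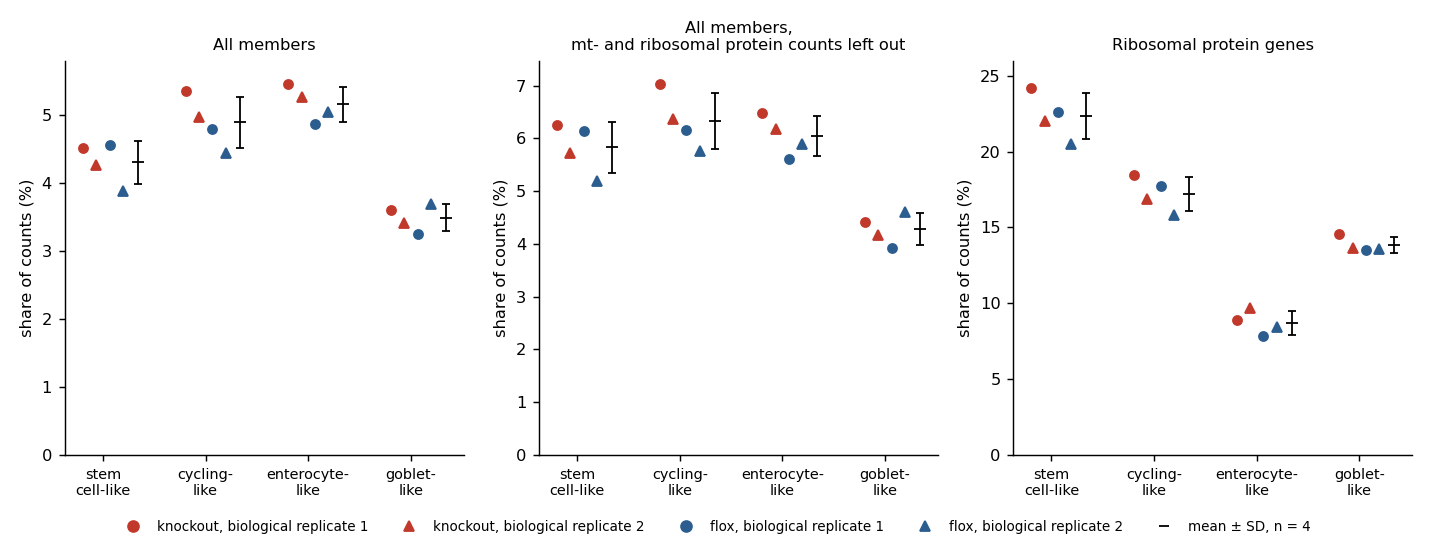
Share of counts (%) of all members over all counts (left) and over counts without mt- and ribosomal protein genes (middle), and share of ribosomal protein genes (right), by class; points are biological replicate sums and black marks the mean ± SD of the 4. Enterocyte-like cells exceed stem cell-like cells at left (5.16% against 4.3%), overlap them in the middle panel and have the lowest ribosomal protein share at right.

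Gene by gene, 39 of the 79 members tested were higher and 6 lower in enterocyte-like than in stem cell-like cells (edgeR quasi-likelihood test on class sums with the biological replicate as a block, Benjamini-Hochberg adjusted p under 0.05). Over all 7369 genes tested, 31.4% were higher and 28.7% lower, 60.1% in all. The members' median log2 fold change was 0.34, beside 0.063 for all genes. The 6 members not tested had too few counts. Calls were unequal among complexes: 7 of 8 members of complex III were higher, 11 of 16 of complex V, 9 of 13 of complex IV and 12 of 36 of complex I, with medians of 0.54, 0.55, 0.46 and 0.24. The assembly factors had 0 of 6 higher and 4 of 6 lower, with a median of -0.87. Without the TMM scaling factors the median of all genes moved from 0.063 to -0.11, and 25 members were higher and 7 lower (27.5% and 32.9% of all genes). All 25 and 6 of the 7 were also called with the factors. Fewer members were called without flox collection 3 (16 higher, 7 lower) and without knockout biological replicate 1 (17 higher, 6 lower). For counts with sums left out, here and below, shares of all genes are not given, so a loss of calls may not be particular to members. Median depth per cell was 1694 counts in enterocyte-like and 1864 in stem cell-like cells, and the median mt- share was 5.42% and 3.38%. Over all 22 alternatives run, 12 members stayed higher (Atp5d, Atp5g3, Atp5o, Cox5a, Cox7a1, Ndufa11, Ndufa6, Ndufb7, Ndufv1, Ndufv3, Uqcrc1 and Uqcrfs1) and 2 stayed lower (Ndufaf2 and Ndufaf6).

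**Figure D3:**
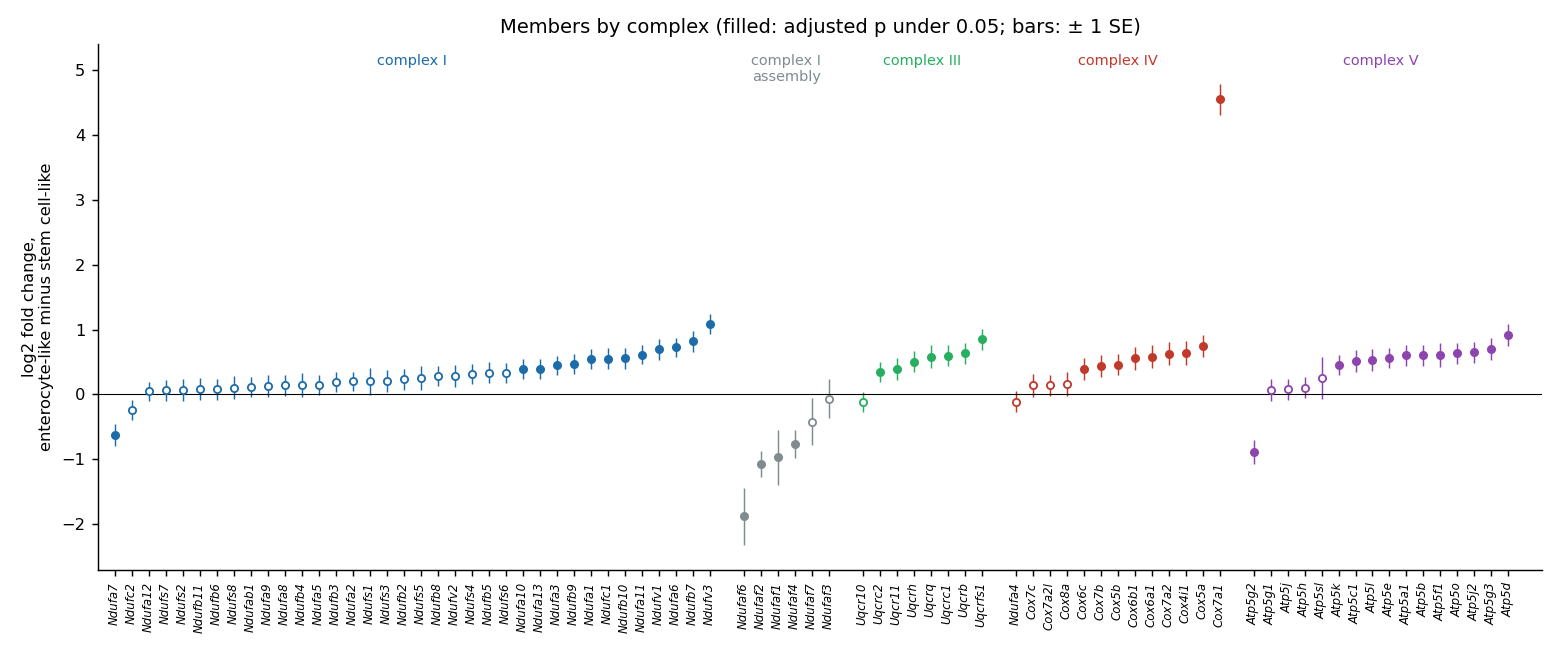
Log2 fold change of each tested member (enterocyte-like minus stem cell-like, pseudogene left out) with ± 1 SE bars, sorted within complex; filled circles have an adjusted p under 0.05. Cox7a1 stands alone at 4.55, most members of complexes III, IV and V lie between 0 and 1, and the assembly factors lie below 0.

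Cox7a1 had the largest fitted difference of the 79 members tested. Its protein is known as the heart and skeletal muscle form of complex IV subunit 7a. It was counted at 10.5, 5.15, 33.1 and 4.21 CPM in stem cell-like cells (34 counts in all), at 96.7, 87.3, 68.7 and 71.2 CPM in cycling-like cells and at 432, 376, 409.6 and 376 CPM in enterocyte-like cells (634 counts). The 3 classes did not overlap. The fitted difference was 4.55 ± 0.24 (SE, adjusted p = 2.55e-26) on the log2 scale when stem cell-like cells were the reference. It was 2.58 ± 0.18 (SE, adjusted p = 1.71e-20) over cycling-like cells, and cycling-like cells exceeded stem cell-like cells by 1.96 ± 0.29 (SE, adjusted p = 3.61e-07). T or NK-like and B or plasma-like cells gave 23.8 ± 47.7 and 18.8 ± 18.6 CPM (SD, n = 4), from 3 and 4 counts with median depths of 780 and 685 counts per cell. The stem cell-like level is not above that background, so the size of a difference from it is uncertain. Of the 4 stem cell-like sums, flox biological replicate 1 was the highest, and without it the difference from stem cell-like cells was 5.83 in enterocyte-like and 3.37 in cycling-like cells. Over all alternatives run, these differences ranged from 3.95 to 5.83 and from 1.59 to 3.37, and the call held in each.

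Because the 3 subunit 7a genes are counted in the same cells, their proportions do not depend on scaling. Cox7a1 made up 1.01% ± 0.922 of the counts of the set in stem cell-like cells, 5.06% ± 0.587 in cycling-like, 6.61% ± 0.663 in goblet-like and 20.5% ± 2.1 in enterocyte-like cells (20.4%, 17.9%, 23% and 20.8%). Within the enterocyte-like class it was 23.1% ± 1.55 in cluster 7 and 16% ± 3.64 in cluster 8. Cox7a2, the widely expressed form, went from 74.4% ± 4.12 to 64.2% ± 0.659 of the set as a proportion. Its level was 914 ± 167 CPM in stem cell-like and 1253 ± 121 CPM in enterocyte-like cells, a fitted log2 difference of 0.63 ± 0.17 (SE, adjusted p = 0.00123). Cox7a2l went from 24.6% ± 4.42 to 15.2% ± 2.25 at 295 ± 31.7 and 299 ± 64.2 CPM (0.14 ± 0.16, SE, adjusted p = 0.466). In these proportions Cox7a1 was larger and both other genes smaller in enterocyte-like than in stem cell-like cells.

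The ATP synthase c-ring genes Atp5g1, Atp5g2 and Atp5g3, which encode one mature protein with different import sequences, also diverged. Atp5g2 was at 231, 273, 184 and 181 CPM in stem cell-like and 143, 111, 68.6 and 94.9 CPM in enterocyte-like cells, a log2 difference of -0.89 ± 0.19 (SE, adjusted p = 4.10e-05). Atp5g3 was at 1071, 845, 1073 and 733 CPM and 1409, 1285, 1472 and 1199.7 CPM in the same classes, a difference of 0.70 ± 0.17 (SE, adjusted p = 2.39e-04). Neither gene's ranges overlapped between the classes. Atp5g1 gave 962 ± 106 and 901 ± 112 CPM, a difference of 0.070 ± 0.17 (SE, adjusted p = 0.744) that did not pass the test. As proportions of the set, Atp5g2 went from 10.4% ± 2.65 to 4.43% ± 1.16, Atp5g1 from 45.7% ± 4.69 to 38.4% ± 3.1 and Atp5g3 from 43.8% ± 4.06 to 57.2% ± 3.71. Atp5g2 was lower than in stem cell-like cells in goblet-like cells as well (-1.14 ± 0.18, SE, adjusted p = 3.77e-07), and in cycling-like cells (-0.58 ± 0.17, SE, adjusted p = 0.00997). With cells split by marker share instead of by cluster, its enterocyte minus stem difference was -0.14 and did not pass.

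The remaining isoform sets were nearly all of one gene. Cox4i1 made up all 3686 counts of its set in stem cell-like and all 4729 in enterocyte-like cells, and Cox6a1 all 2577 in enterocyte-like cells and 2148 of 2149 in stem cell-like cells. Cox6b2, known as the testis form of subunit 6b, gave 25 of 2236 counts of its set in stem cell-like cells (1.29% ± 0.455), 5 of 3417 in cycling-like cells and 0 of 2572 in enterocyte-like cells, which allows a share of up to 0.117% (3 counts over the class, counting error only). It was not among the members tested between classes, and by genotype in all kept cells it did not pass (log2 0.25 ± 0.49, SE). Cox8a was counted alone in its set, and Ndufa4, now assigned to complex IV, was at 859 ± 93.7 CPM in stem cell-like and 707 ± 59.7 CPM in enterocyte-like cells, a difference of -0.11 ± 0.16 (SE, adjusted p = 0.551).

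**Figure D4:**
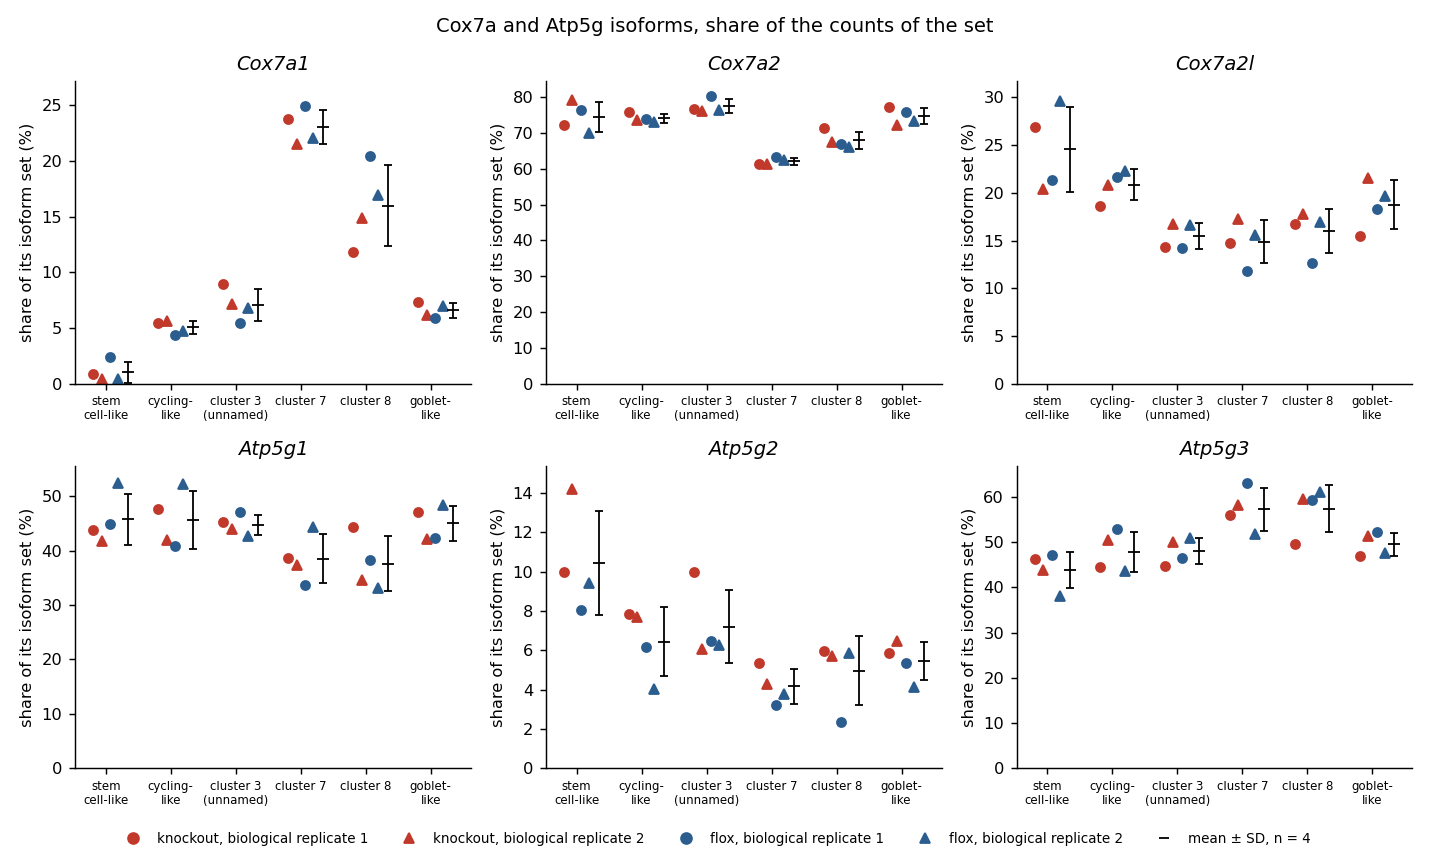
Share (%) of each gene in the counts of its isoform set, for Cox7a1, Cox7a2 and Cox7a2l (top) and Atp5g1, Atp5g2 and Atp5g3 (bottom), by class or cluster; points are biological replicate sums and black marks the mean ± SD of the 4. Cox7a1 goes from 1.01% in stem cell-like cells to 23.1% in cluster 7, and Atp5g2 is highest in stem cell-like cells at 10.4%.

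The 250 bases before the RefSeq start are shown for 5 of the members whose isoform proportions are described above, chosen after their values were seen, to set the diverging genes Cox7a1 and Cox7a2, and Atp5g2 and Atp5g3, beside each other and beside Cox6a1, the uniformly used gene of its set. The sequences are from RefSeq, build GRCm38.p6, written 5′ to 3′ on the gene's strand, with capitals where one of 4 motifs was found on either strand: NRF1 (GCGCNTGCG, part of its longer consensus), ETS (CCGGAAG), YY1 (AANATGGC) and the TATA box (TATAAA), where N is any base.
Cox7a1: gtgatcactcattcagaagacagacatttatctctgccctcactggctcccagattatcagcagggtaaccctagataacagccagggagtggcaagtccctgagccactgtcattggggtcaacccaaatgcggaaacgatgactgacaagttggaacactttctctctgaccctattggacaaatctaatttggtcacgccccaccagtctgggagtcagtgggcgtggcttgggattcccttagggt
Cox7a2: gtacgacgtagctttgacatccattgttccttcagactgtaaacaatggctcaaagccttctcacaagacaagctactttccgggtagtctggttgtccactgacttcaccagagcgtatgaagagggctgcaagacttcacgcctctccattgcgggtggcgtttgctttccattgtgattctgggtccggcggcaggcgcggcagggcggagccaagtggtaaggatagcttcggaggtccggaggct
Cox6a1: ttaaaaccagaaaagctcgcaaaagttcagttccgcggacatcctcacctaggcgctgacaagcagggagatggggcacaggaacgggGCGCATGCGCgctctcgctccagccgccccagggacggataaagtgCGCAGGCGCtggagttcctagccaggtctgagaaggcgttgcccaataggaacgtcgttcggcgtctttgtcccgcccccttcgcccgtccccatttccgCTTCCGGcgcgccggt
Atp5g2: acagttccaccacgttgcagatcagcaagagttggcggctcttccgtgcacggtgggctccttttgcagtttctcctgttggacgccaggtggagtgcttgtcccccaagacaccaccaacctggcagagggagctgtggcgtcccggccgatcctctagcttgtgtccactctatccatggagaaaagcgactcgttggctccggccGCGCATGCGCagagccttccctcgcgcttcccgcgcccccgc
Atp5g3: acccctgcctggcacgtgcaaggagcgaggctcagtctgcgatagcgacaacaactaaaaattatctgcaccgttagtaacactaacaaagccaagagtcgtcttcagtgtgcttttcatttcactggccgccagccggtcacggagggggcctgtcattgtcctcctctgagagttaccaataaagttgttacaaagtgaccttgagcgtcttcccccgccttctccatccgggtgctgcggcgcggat
The windows are chr7:30183921-30184170 (plus strand), chr9:79759854-79760103 (minus strand), chr5:115348959-115349208 (minus strand), chr15:102671048-102671297 (minus strand) and chr2:73911327-73911576 (minus strand). The Cox6a1 window holds 3 NRF1 matches, 2 of which overlap, and 1 ETS match, the Atp5g2 window 2 overlapping NRF1 matches, and the other 3 none of the 4. The Atp5g2 window lies inside the gene as GENCODE annotates it on the same build, chr15:102662864-102672352. Promoter windows were found for 71 of the 85 members (77 windows) among 32851 windows of all genes. NRF1 letters were in 18 of 77 member windows (23.4%) and 5.19% of all windows, ETS letters in 12 of 77 member windows (15.6%) and 6.91% of all windows, YY1 letters in 8 of 77 member windows (10.4%) and 3.91% of all windows and TATA letters in 6 of 77 member windows (7.79%) and 12.4% of all windows. Matches of different motifs may overlap and were counted separately. A match is a description of letters, not a site.

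Among the other members with the largest differences, Ndufv3, an accessory subunit of the NADH dehydrogenase module of complex I, was at 225, 278, 254 and 227 CPM in stem cell-like and 505, 459, 455 and 444 CPM in enterocyte-like cells, a log2 difference of 1.08 ± 0.16 (SE, adjusted p = 1.27e-08). Atp5d, the delta subunit of the central stalk of the ATP synthase, went from 604, 463, 639 and 497 CPM to 1016, 898, 942 and 871 CPM (0.91 ± 0.17, SE, adjusted p = 3.79e-06). Both were higher in all 4 replicates without overlap. Uqcrfs1, the Rieske iron-sulfur protein of complex III, was at 257, 206, 259 and 198 CPM and 457, 315, 366 and 359 CPM (0.85 ± 0.16, SE, adjusted p = 6.67e-06). Ndufb7, a complex I accessory subunit, had a difference of 0.82 ± 0.16 (SE, adjusted p = 1.20e-05) and Cox5a of complex IV one of 0.75 ± 0.17 (SE, adjusted p = 1.14e-04). Among the most abundant members, Cox4i1 was at 2127, 2142, 2119 and 2236 CPM in stem cell-like and 3172, 3029.9, 2879.96 and 2887 CPM in enterocyte-like cells (0.64 ± 0.19, SE, adjusted p = 0.00254), and Atp5b differed by 0.60 ± 0.16 (SE, adjusted p = 9.87e-04). Over the 79 members, 27 had enterocyte-like values all above the stem cell-like values and 7 had them all below in CPM, where 22.7% and 26.9% of all genes tested did so.

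The complex I assembly factors, chaperone-like proteins that are not part of the finished complex, had the only negative median of the 5 groups in enterocyte-like cells. Ndufaf2 was at 231, 196, 168 and 173 CPM in stem cell-like and 86.4, 113, 76.9 and 40.7 CPM in enterocyte-like cells, a log2 difference of -1.07 ± 0.20 (SE, adjusted p = 6.47e-06). Ndufaf6 was at 33.7, 56.6, 22.1 and 42.1 CPM (55 counts) and 2.27, 13.8, 12.5 and 3.39 CPM (13 counts), a difference of -1.88 ± 0.44 (SE, adjusted p = 1.79e-04). The ranges of both genes were separate. Ndufaf4 differed by -0.76 ± 0.21 (SE, adjusted p = 0.00162), and the call was lost without flox biological replicate 1 (-0.54) and by marker-share range (-0.20). Ndufaf1 differed by -0.97 ± 0.42 (SE, adjusted p = 0.041) on 49 and 20 counts, and that call was lost in 6 of the alternatives, among them the one without shared barcodes. Ndufaf3 and Ndufaf7, at -0.066 ± 0.30 and -0.42 ± 0.36 (SE), did not pass. Outside this group the lower calls were Atp5g2 and Ndufa7, an accessory subunit of complex I at 339, 324, 336 and 244 CPM and 199.98, 241, 131 and 166 CPM (-0.63 ± 0.17, SE, adjusted p = 0.00106). The difference of Ndufa7 was 0.071 when cells were split by marker share.

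Splitting the 3446 cells outside the named secretory and immune clusters into 3 equal ranges of enterocyte minus stem marker share, with clusters used only to leave those cells out, gave more calls. Between the outer ranges 67 of the members tested were higher and 3 lower, against 39 and 6 between the clusters. Of all 8316 genes tested between the ranges, 29.4% were higher and 28.7% lower. Member share was 3.85% ± 0.346 in the lowest range, 4.62% ± 0.558 in the middle one and 5.43% ± 0.265 in the highest. Without mt- and ribosomal protein counts it was 5.2% ± 0.521, 6.08% ± 0.812 and 6.64% ± 0.351, the same order over the ranges. Complex I assembly factors again went the other way, at 0.045% ± 0.00415, 0.0412% ± 0.00455 and 0.0323% ± 0.00227. All 1881 unnamed cells were among the 3446, the 884 of cluster 1 included, and their spread over the ranges is not given here. The lowest range includes unnamed cells with few markers of either kind, and mt- genes took 6.02% ± 1.25 of its counts against 3.85% in the stem cell-like cluster. The part of the unnamed cells in these calls was not tested.

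Cycling-like cells differed from stem cell-like cells in 3 higher members, Cox7a1, Ndufv3 (0.52 ± 0.15, SE, adjusted p = 0.011) and Atp5d (0.48 ± 0.17, SE, adjusted p = 0.0341), and 1 lower, Atp5g2. Of all genes tested 9.15% were higher and 9.96% lower, against 3.8% and 1.27% of members. In either direction it was 19.1% of all genes. Their median was 0.094, beside -0.00453 for all genes, which without TMM factors moved to 0.10. Of the 4, only Cox7a1 was called in all 21 alternatives run. Without flox collection 3, and without knockout biological replicate 1, 2 members were called. Without flox biological replicate 1, 6 were. The median depth of the cycling-like cells was 4601 counts, against 1864 in stem cell-like cells.

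Between enterocyte-like and cycling-like cells 32 members were higher and 3 lower, where 26.8% and 22.4% of all genes were (49.2% in all). This count changed with the scaling. Without TMM factors, which moved the median of all genes from 0.060 to -0.22, 1 member was higher and 10 were lower, where 18.7% and 31.8% of all genes were. Cox7a1 was higher and Ndufaf4 (-0.79 ± 0.20, SE, adjusted p = 8.66e-04), Ndufaf6 (-1.56 ± 0.43, SE, adjusted p = 0.00175) and Ndufaf2 (-0.63 ± 0.20, SE, adjusted p = 0.00716) were lower both ways. Uqcrb (0.59 ± 0.15), Ndufa6 (0.58 ± 0.14), Ndufa1 (0.57 ± 0.15), Cox5a (0.56 ± 0.17) and Cox4i1 (0.56 ± 0.19, all log2 ± SE) did not pass without TMM factors. Leaving out single libraries also moved the count, to 22 without knockout collection 1 and to 15, 13 and 12 without flox collection 1, 2 and 3. It was 8 without knockout biological replicate 1.

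Goblet-like cells had 3 higher and 28 lower members than stem cell-like cells, where 20.7% of all genes were higher and 19.4% lower (40.1% in all). The median was -0.28, beside 0.020 for all genes. Without flox biological replicate 1 the calls were 3 higher and 15 lower. Lower calls covered 14 of 36 members of complex I, 6 of 13 of complex IV, 4 of 16 of complex V, 1 of 8 of complex III and 3 of 6 assembly factors. The most abundant was Cox7c, a small structural subunit of complex IV, at 953, 933, 1008 and 838 CPM in goblet-like and 1780.2, 1741, 1696 and 1158 CPM in stem cell-like cells (-0.71 ± 0.18, SE, adjusted p = 0.00118). The stem cell-like and goblet-like values did not overlap. Ndufc2 and Ndufb6, accessory subunits of complex I, differed by -0.79 ± 0.16 (SE, adjusted p = 4.61e-05) and -0.74 ± 0.16 (SE, adjusted p = 1.89e-04), and Ndufaf2 by -0.91 ± 0.19 (SE, adjusted p = 6.37e-05). Ndufaf6 differed by -0.85 ± 0.35 (SE, adjusted p = 0.0417), a call that 9 of the alternatives lost. Higher were Cox7a1 (1.97 ± 0.30, SE, adjusted p = 1.39e-07), Ndufv3 (0.60 ± 0.16, SE, adjusted p = 0.00143) and Atp5e, the epsilon subunit of the ATP synthase (0.43 ± 0.16, SE, adjusted p = 0.0222). The Cox7a1 difference was 3.34 without flox biological replicate 1, and 7 of the alternatives lost the Atp5e call. Enterocyte markers were also higher in goblet-like than in stem cell-like cells (11 of 20 tested, 1 lower). Their summed share was 0.542% to 0.907% in goblet-like and 0.285% to 0.324% in stem cell-like sums, and their part in the Cox7a1 and Ndufv3 differences was not tested.

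Other mitochondrial and fuel genes were read from the same enterocyte-like against stem cell-like fit, in which 31.4% of all genes were higher and 28.7% lower. Of complex II, which feeds electrons from succinate and is wholly nuclear-encoded, 3 of 4 genes were higher, led by Sdhb (0.84 ± 0.17) and Sdha (0.59 ± 0.17, log2 ± SE as for all genes in this paragraph). Of fatty acid oxidation genes 11 of 12 were higher, led by Hadh (1.61 ± 0.19) and Cpt2 (1.61 ± 0.30). Of glycolytic genes 10 of 13 were higher, led by Pfkp (3.71 ± 0.23). Tricarboxylic acid cycle genes had 9 of 18 higher (Ogdh 1.85 ± 0.17, Mdh2 1.76 ± 0.16) and 1 lower (Fh1 -0.45 ± 0.19). Genes for the electron carriers split into 5 higher, among them Cycs for cytochrome c (1.17 ± 0.16) and Etfdh (1.08 ± 0.26), and 2 lower, Coq2 (-1.85 ± 0.38) and Coq6 (-0.999 ± 0.40) of ubiquinone synthesis. Of 29 other assembly factors 6 (20.7%) were higher and 5 (17.2%) lower, both under the shares of all genes, among the lower ones Uqcc1 (-1.05 ± 0.33) and Uqcc2 (-1.01 ± 0.20), which assist complex III. Of 9 regulators 2 were higher and 2 lower. Ppargc1a (3.21 ± 0.39) and Esrra (1.96 ± 0.23), a coactivator and a nuclear receptor that drive respiratory genes, were higher, while Tfam (-1.56 ± 0.20) and Tfb2m (-2.14 ± 0.40), which act on mitochondrial DNA, were lower. The list for adenine nucleotide exchange also holds the phosphate carrier gene Slc25a3 and the Vdac pore genes. It had 3 of 6 genes higher, led by Vdac2 (1.29 ± 0.16) and Slc25a3 (0.73 ± 0.16). The mitochondrially encoded partner subunits had 5 of 8 tested genes higher, led by mt-Nd3 (0.69 ± 0.20) and mt-Co1 (0.63 ± 0.18). In goblet-like against stem cell-like cells, where 20.7% of all genes were higher and 19.4% lower, most of these lists had more lower than higher calls. Of the nucleotide exchange list 0 of 6 were higher and 4 lower, of electron carriers 2 of 11 and 5, and of other assembly factors 1 of 29 and 6. Of tricarboxylic acid cycle genes it was 1 of 18 and 4, of regulators 0 of 9 and 2, and of complex II 0 of 4 and 1. Glycolysis gave 4 of 13 higher and 2 lower, fatty acid oxidation 1 of 12 and 0, and the mitochondrially encoded subunits 0 of 8 in either direction.

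By genotype label, no member passed the test in all kept cells or in the 4 classes tested, and most fitted values lay slightly above 0. In all kept cells 0 of 83 members tested passed in edgeR's quasi-likelihood test of 2 against 2 biological replicates, and 0.00947% of all 10555 genes did. At an unadjusted p under 0.05 there were 3 members, and DESeq2 also called 0. Shares of all genes at that unadjusted threshold are not given, here or below, so such counts do not set the members apart. Fitted values were above 0 for 73 of the 83 members, with a median of 0.099 on the log2 scale, beside 0.00187 for all genes, of which 5304 of 10555 were above 0. Member share by collection was 4.63%, 4.74% and 4.28% in knockout and 4.23%, 4.41% and 4.11% in flox, and these ranges overlap. In CPM, 5 members (Cox7c, Cox6c, Cox7a1, Atp5l and Atp5l-ps1, named after their values were seen) had all 3 knockout collections above all 3 flox collections, where 2.47% of all genes did, and no member had them all below, where 4.54% did. Enteroendocrine markers were higher in value in 13 of 14 tested (median 0.90) in the same fit. Their 17 markers took 0.0941% to 0.207% of counts in the knockout and 0.0524% to 0.227% in the flox collections, with none at 0. By cells, the collections of the 2 labels did not overlap in the share of Paneth-like cells (1.14% to 2.65% in knockout, 4.54% to 5.98% in flox), enteroendocrine-like cells (2.12% to 3.27% and 0.864% to 2.11%), tuft-like cells (1.53% to 1.59% and 0.423% to 1.3%) or cells of unnamed clusters (40.8% to 43.4% and 30.9% to 38.1%). The other named classes overlapped. The nearest enteroendocrine-like values were 2.12% in knockout 1 (16 of 754 cells) and 2.11% in flox 2 (10 of 473 cells). Tuft-like cells numbered 2 to 15 per collection. Collections 1 and 2 of a label were read as 1 biological replicate. The part of the Paneth-like, enteroendocrine-like, tuft-like and unnamed cells in the member values was not tested.

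The members with the smallest p in all kept cells had Atp5 symbols. The pseudogene Atp5l-ps1 came first (1.54 ± 0.44, SE, unadjusted p = 0.00386, edgeR adjusted p = 1). Atp5l, subunit g of the ATP synthase, was at 275, 322 and 238 CPM in the knockout collections and 194, 203 and 189 CPM in the flox collections, a difference of 0.52 ± 0.20 (SE, unadjusted p = 0.0206, edgeR adjusted p = 1). Atp5s was at 5.36, 4.4 and 6.22 CPM and 10.9, 5.83 and 11.8 CPM (-0.89 ± 0.41, SE, unadjusted p = 0.0482, edgeR adjusted p = 1), and Atp5g2 at 200.3, 170.3 and 139 CPM and 115, 208 and 108 CPM (0.44 ± 0.21, SE, unadjusted p = 0.0574, edgeR adjusted p = 1). Of these, the collections of Atp5l-ps1 and Atp5l did not overlap between the labels, and those of Atp5s and Atp5g2 did. Reads of Atp5l and of its pseudogene Atp5l-ps1 may be exchanged in counting, so both values are uncertain. Without flox collection 3 Atp5l-ps1 was called, at 2.11.

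Class by class the count was again 0, in stem cell-like cells of 77 members (0.0807% of all genes called), in cycling-like cells of 80 (0.0302%), in enterocyte-like cells of 76 (0.0782%) and in goblet-like cells of 78 (0.0155%). Members at an unadjusted p under 0.05 numbered 1, 6, 6 and 0 by edgeR and 1, 4, 1 and 0 by DESeq2, which called none. These unadjusted counts too have no share of all genes beside them. Leaving out 1 flox sum gave 1 call in places, Atp5k in stem cell-like cells without flox collection 1, and Atp5l in stem cell-like and Atp5g2 in cycling-like cells without flox biological replicate 1. With the biological replicate as a block, 4 members were called in cycling-like cells, Atp5g2, Atp5k, Atp5l and Cox7c, all higher in knockout, where 0.801% of all genes were. Values lay above 0 for 56 of 77 members (median 0.061) in stem cell-like, 69 of 80 members (median 0.16) in cycling-like, 70 of 76 members (median 0.16) in enterocyte-like and 44 of 78 members (median 0.040) in goblet-like cells. Within the 2 sets of libraries that share barcodes, the medians were 0.16 and 0.13 in all kept cells, -0.068 and 0.25 in stem cell-like, 0.072 and 0.26 in cycling-like, 0.20 and 0.084 in enterocyte-like and 0.099 and -0.033 in goblet-like cells.

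The summed share showed where the values were apart. In enterocyte-like cells members took 5.46% and 5.26% of counts in the knockout replicates and 4.87% and 5.04% in the flox replicates, and in cycling-like cells 5.35% and 4.98% against 4.79% and 4.44%. The replicates of the 2 labels did not overlap in either class. In stem cell-like cells (4.51% and 4.27% against 4.55% and 3.88%) and goblet-like cells (3.6% and 3.41% against 3.25% and 3.69%) they did. Complex IV contributed most to the gap in enterocyte-like cells, at 1.82% and 1.8% against 1.61% and 1.67%. With 2 replicates a label, an exact permutation test cannot give a two-sided p below 0.333, and none was made. In the enterocyte-like fit ribosomal protein genes were above 0 in 92 of 94 tested and mt- protein genes in 8 of 8, and their part in the member values was not tested.

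The 3 members with the smallest p in each class included Atp5g2 and Atp5l repeatedly. Atp5g2 was among the 3 with the smallest p in stem cell-like (0.48 ± 0.25, SE, unadjusted p = 0.0569, edgeR adjusted p = 0.998), cycling-like (0.70 ± 0.26, SE, unadjusted p = 0.0144, edgeR adjusted p = 0.999) and enterocyte-like cells (0.73 ± 0.30, SE, unadjusted p = 0.029, edgeR adjusted p = 0.997). Atp5l was so in stem cell-like (0.71 ± 0.26, SE, unadjusted p = 0.0101, edgeR adjusted p = 0.907), cycling-like (0.64 ± 0.23, SE, unadjusted p = 0.0105, edgeR adjusted p = 0.976) and goblet-like cells (0.49 ± 0.29, SE, unadjusted p = 0.101, edgeR adjusted p = 1). In goblet-like cells all 3 missed even the unadjusted threshold. The others were Cox6a1 in stem cell-like cells (0.35), Cox7c in cycling-like (0.49) and enterocyte-like cells (0.44), Ndufa7 in enterocyte-like cells (0.63), and Ndufaf7 (-0.998) and Ndufa3 (0.37) in goblet-like cells, all log2 values. The flox replicates were themselves apart for some of these. In the 2 flox sums of cycling-like cells Atp5g2 was at 149 and 80.7 CPM, and Cox7c at 1512 and 1092 CPM.

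The difference between classes was tested directly as an interaction of genotype label with class. None of 79 members had a genotype difference that differed between enterocyte-like and stem cell-like cells (edgeR, 1 at an unadjusted p under 0.05, 0 called by DESeq2), and 0% of all 6627 genes did. The smallest p was for Cox7a1, whose difference of differences was 1.55 ± 0.64 (SE, unadjusted p = 0.0149, edgeR adjusted p = 1). The stem cell-like values in it were 10.5 and 5.15 CPM in knockout and 33.1 and 4.21 CPM in flox, and the difference turned to -0.88 without flox biological replicate 1. Ndufa9 and Cox7a2l followed, at 0.61 ± 0.33 and 0.49 ± 0.29.

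**Figure D5:**
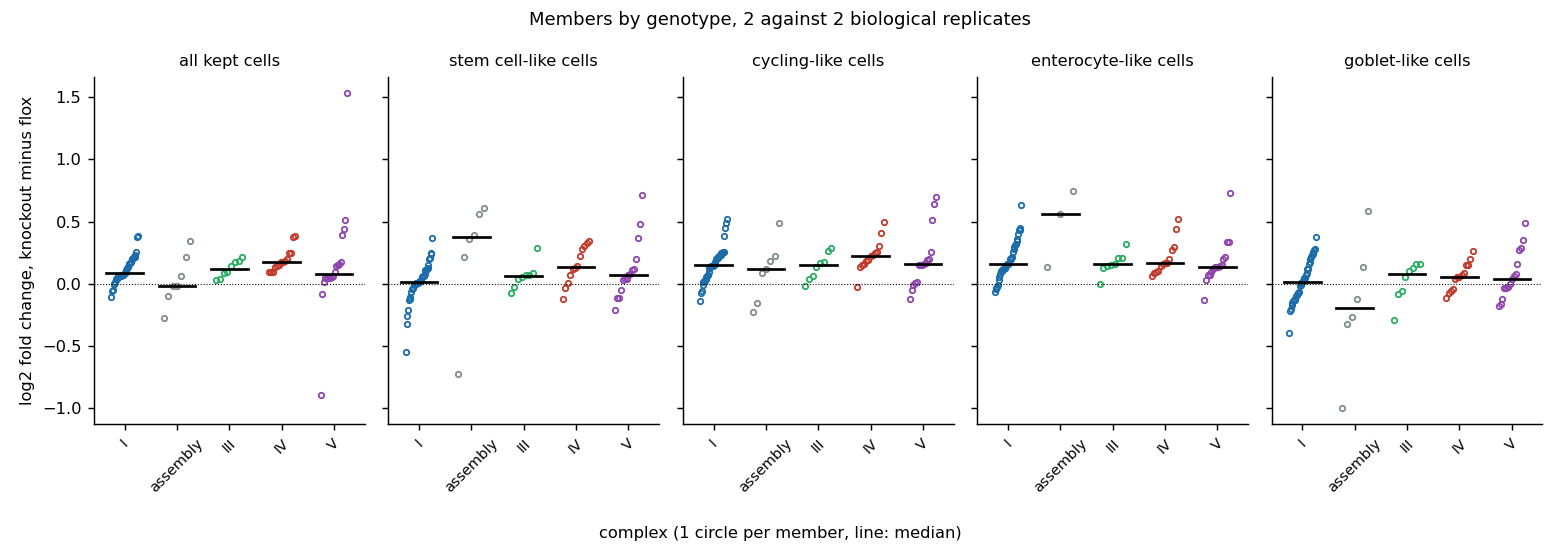
Log2 fold change (knockout minus flox labels) of each tested member by complex, in all kept cells and 4 classes; circles are members, the pseudogene included, and black lines medians. Most circles lie within 0.5 of 0 and none passed the test; the medians of complexes I, III, IV and V are at or above 0.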

How the data were processed

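Cells from 6 Drop-seq collections were analysed. The deposited tables hold whole-number counts per gene and barcode, which the authors made with STAR 2.6 and the mm10 build, per the submitters' processing notes. How identifiers were collapsed, how barcodes were chosen and which annotation was used is not given in the sources used here. From these counts, barcodes with at least 300 genes and at most 25% mt- counts were kept, clustered without the members (30 principal components, Leiden resolution 1, leidenalg 0.10.2, Python 3.11.15) and named from marker lists. Doublets were not removed, since no caller was run. Counts were summed per biological replicate and class, with at least 20 cells per sum in the fits. Sums were tested with edgeR 4.0.16 in R 4.3.3 (quasi-likelihood test, TMM factors, filterByExpr with a minimum count of 10, Benjamini-Hochberg adjustment over all genes tested, threshold 0.05), and with DESeq2 1.42.0 as an alternative. The class fits held stem cell-like, cycling-like, enterocyte-like, goblet-like and Paneth-like sums together. Only a smaller edgeR fit, of enterocyte-like and stem cell-like sums alone, was tested on simulated data with set fold changes. Those data had a fixed spread and no replicate effect. The class fits reported here, the genotype fits, the interaction and DESeq2 were not tested in this way. Genotype fits compared 2 with 2 biological replicate sums and class fits used the biological replicate as a block. Named in each comparison were called members with a mean of at least 20 CPM, up to 6 per direction by fold change, or the 3 with the smallest p where fewer than 3 passed, the 2 most abundant of each complex, and all isoform sets. One gene of the related lists that this rule would name is not reported here. Members and lists were chosen with earlier results of these data known. Kept counts per collection ran from 1028412 to 3020164, and shares of low counts carry counting error only.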

Additional observations from a re-analysis of the deposited data

How the results depend on the processing

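A total of 29 alternative settings were run, including other scaling, filters, cell sets, clusterings and samples. Of 1159 values of single genes over 52 results, 1095 kept their direction and side of the threshold, 56 lost significance, 5 gained it and 3 changed sign. Those that changed sign were Ndufa3 by genotype in goblet-like cells (-0.18 within the libraries that share barcodes with knockout 1), Ndufa7 between enterocyte-like and stem cell-like cells (0.071 by marker-share range), and the Cox7a1 interaction, which ran from -0.88 without flox biological replicate 1 to 2.36 without knockout replicate 1.

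With a single collection or biological replicate left out, genotype calls ran from 0 to 1 in all kept cells, stem cell-like and cycling-like cells, and were 0 in enterocyte-like and goblet-like cells and for the interaction. Class counts ran from 2 to 6 for cycling-like minus stem cell-like (4 in full), 23 to 43 for enterocyte-like minus stem cell-like (45), 8 to 37 for enterocyte-like minus cycling-like (35) and 18 to 33 for goblet-like minus stem cell-like cells (31). All these counts are given without the shares of all genes, so their changes may not be particular to members. Where a left-out sum left 1 sample in an arm, it was assumed to vary like the other sums.

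The replicate block changed some counts. Biological replicate as a replicate block in the genotype fits gave 4 calls in cycling-like cells and 0 elsewhere, and collection number as a block gave 0. Same-numbered collections did not all deviate together. The r was -0.17 and 0.051 for collections 1 and 2, but 0.41 for collection 3, the highest of all pairs of a knockout with a flox collection. With 2 biological replicates only 1 correlation could be had (r = 0.36), which cannot settle whether they are pairs. The numbers were not taken as pairs in the main fits. Without the replicate block the class counts were 2, 31, 8 and 28 in the order above.

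Enterocyte-like minus cycling-like calls were 11 without TMM factors, 22 without a filter on low counts, 13 with at least 600 genes per barcode, 18 with at most 15% mt- counts, 23 without barcodes over 20000 counts, 21 with single collections as samples, 22 with members kept in the clustering and 21 at Leiden resolution 0.6. Enterocyte-like minus stem cell-like calls were 70 by marker-share range, and goblet-like minus stem cell-like calls 20 without the filter. The cause was not tested. Without mt- and ribosomal protein counts the share differences were 0.211 (enterocyte-like) and -1.55 percentage points (goblet-like) against 0.857 and -0.815. The settings on shared barcodes, immune clusters and cluster 1 were chosen after the data were seen. Genes with few counts, such as Ndufaf1 and Ndufaf6, are limited by depth.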

Other observations

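Barcodes below 100 counts, which the gene and mt- limits left out, numbered 14 to 2119 per collection. Members took 2.33% of their counts, against 4.35% in the kept cells.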
